A study of Mus musculus with 9 samples.

Results

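The genes described here belong to families of enzymes that write or erase methyl and acetyl marks on histone lysines, or methyl marks on DNA. They were chosen by name: mouse genes of the Kdm, Kmt, Setd, Hdac, Kat, Sirt, Ezh, Dnmt and Tet series, without the class IIa deacetylases Hdac4, Hdac5, Hdac7 and Hdac9, and with a mean of at least 1 CPM (counts scaled to the library's total gene count) over the 9 libraries. Of 43629 genes in the count table, 75 carried such a name, 59 reached 1 CPM, and 56 of these had enough counts to be tested. All 59 were protein-coding. Just inside the limit stood Sirt4 (1.141 CPM) and Kdm8 (1.35 CPM), and just outside it Sirt6 (0.780 CPM) and Sirt5 (0.669 CPM). The other 14 genes below it, Tet1, Hdac11, Kdm4d, Dnmt3l, Dnmt3c, 3 antisense genes and 6 pseudogenes, lay at 0 to 0.232 CPM.

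The libraries came from clone 4242 of an Eµ-Myc lymphoma, so every library came from 1 clone. In this mouse B-cell lymphoma the immunoglobulin heavy chain enhancer drives a Myc transgene, which every group carried. The cells were grown in vitro and exposed for 2 h to 1 µM JQ1, to 2.5 µM RG6146 or to DMSO, the solvent, with 3 libraries per group. JQ1 and RG6146 inhibit the BET bromodomain proteins. RNA was read as 3′ tags (QuantSeq), about 1 read per transcript, so the libraries carry no information on splicing, protein amount or enzyme activity.

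Histone acetyltransferases (KAT) place acetyl groups on lysines, and BET proteins bind to these acetyl groups and help RNA polymerase II to elongate. Histone deacetylases (HDAC) and the NAD-dependent sirtuins remove acetyl groups. Methyl groups on lysines 4 and 36 of histone H3 (H3K4, H3K36) mark active genes, those on lysines 9 and 27 (H3K9, H3K27) and on lysine 20 of histone H4 (H4K20) are largely tied to silent chromatin, and each is placed by SET domain enzymes and removed by lysine demethylases (KDM). DNA methyltransferases place methyl groups on cytosine and TET dioxygenases oxidise them. Several of these genes, among them Kmt2d, Ezh2, Tet2 and Kat6a, are known for mutations in lymphoid or myeloid cancers.

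The libraries held 3410161 to 5031717 gene counts. The log2 fold change of Hexim1, whose rise is widely used as a sign of BET inhibition, was 1.55 ± 0.07 (SE) with JQ1 and 1.46 ± 0.07 with RG6146. Myc was not at the same level in all groups, with 0.42 ± 0.11 under JQ1 and 0.78 ± 0.11 under RG6146 against DMSO. All 10 B-cell markers examined were detected, and their sum was 1020 to 1189 CPM under DMSO, 725 to 796 CPM under JQ1 and 747 to 868 CPM under RG6146, where 5 of the 10 genes fell in either comparison. Myeloid markers (15 genes, 11 with enough counts to test) summed to 172 to 797 CPM under DMSO, 58.0 to 296 CPM under JQ1 and 90.6 to 135 CPM under RG6146. Although the sums were lower under JQ1 and RG6146 in most libraries, 1 of the 11 genes was called higher and 0 lower in either comparison. Replicate 2 had the highest sum in every group, by the widest margin under DMSO and JQ1. Stromal and endothelial markers (8 genes, only 2 with enough counts to test) summed to 132 to 143, 98.4 to 101 and 104 to 111 CPM. T and NK cell markers (10 genes, 1 tested) summed to 7.92 to 12.3, 3.03 to 6.25 and 5.57 to 7.59 CPM, with Trac and Ncr1 at 0 in every library. Erythroid markers (6 genes, 0 tested) summed to 3.03 to 17.4 CPM over all libraries. The part of other cells in the results below was not tested, and values without replicate 2 of DMSO and of JQ1 (both replicates 2) are given where they end a call. In such bulk libraries, fewer cells of a type and less RNA per cell cannot be told apart.

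The 5′ ends of 5 genes, picked for the changes described below, are shown. They are Sirt1, the largest rise, Tet3 and Kat14, among the falls, and Kmt2c and Kmt2d, closely related genes that moved apart. A part of these sequences in the changes was not tested. Each line gives the 250 bases before the RefSeq transcription start on build GRCm38.p6, 5′ to 3′ on the gene's strand. The positions are chr10:63339036-63339285 (minus strand) for Sirt1, chr6:83441679-83441928 (minus) for Tet3, chr2:144368782-144369031 (plus) for Kat14, chr5:25498784-25499033 (minus) for Kmt2c and chr15:98871206-98871455 (minus) for Kmt2d. Capitals mark the E-box CACGTG, the sequence that MYC and its partner MAX bind, and the GC box GGGCGG, the sequence of SP1-type factors, on either strand.
Sirt1: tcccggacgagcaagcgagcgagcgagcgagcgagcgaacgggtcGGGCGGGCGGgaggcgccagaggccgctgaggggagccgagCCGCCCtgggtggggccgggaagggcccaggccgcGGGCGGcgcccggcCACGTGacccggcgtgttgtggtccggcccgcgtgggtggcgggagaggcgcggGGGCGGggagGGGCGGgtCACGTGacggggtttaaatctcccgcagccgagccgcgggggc
Tet3: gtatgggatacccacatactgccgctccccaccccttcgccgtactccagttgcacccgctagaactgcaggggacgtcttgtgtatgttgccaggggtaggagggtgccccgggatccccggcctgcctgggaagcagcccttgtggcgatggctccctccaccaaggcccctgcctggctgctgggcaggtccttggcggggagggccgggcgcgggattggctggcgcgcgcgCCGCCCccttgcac
Kat14: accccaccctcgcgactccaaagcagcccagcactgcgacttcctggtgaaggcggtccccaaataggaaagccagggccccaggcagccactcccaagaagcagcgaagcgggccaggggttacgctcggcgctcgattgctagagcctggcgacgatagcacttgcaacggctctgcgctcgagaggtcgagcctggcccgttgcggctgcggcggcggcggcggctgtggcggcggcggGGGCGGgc
Kmt2c: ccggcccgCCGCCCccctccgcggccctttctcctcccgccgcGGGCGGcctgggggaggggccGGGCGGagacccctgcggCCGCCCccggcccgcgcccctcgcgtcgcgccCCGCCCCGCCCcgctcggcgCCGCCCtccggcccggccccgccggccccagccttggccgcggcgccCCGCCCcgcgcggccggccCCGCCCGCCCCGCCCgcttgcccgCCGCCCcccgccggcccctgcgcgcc
Kmt2d: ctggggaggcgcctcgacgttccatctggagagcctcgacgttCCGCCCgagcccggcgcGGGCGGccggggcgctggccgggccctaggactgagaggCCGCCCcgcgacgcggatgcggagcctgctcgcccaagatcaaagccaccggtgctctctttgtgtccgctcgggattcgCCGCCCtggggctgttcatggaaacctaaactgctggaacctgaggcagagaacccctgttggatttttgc
The Sirt1 window held 2 E-boxes and 6 GC boxes, counting overlapping ones, while the windows of the other 4 genes held no E-box. Their GC boxes numbered 1 in Tet3, 1 in Kat14, 12 in Kmt2c and 4 in Kmt2d. The starts of Sirt1 and Tet3 used by RefSeq lie inside the longer gene models of the GENCODE M21 annotation.

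A RefSeq window was at hand for 47 of the 59 genes. Some genes have several RefSeq starts, and a gene counts where any of its windows holds the motif. An E-box (CACGTG, its own reverse complement) was found in 5 genes, 10.6%, against 6.86% of the 27025 genes in the RefSeq table. The 5 were Sirt1, Kdm4c, Kat5, Dnmt3a and Kdm6a. A GC box (GGGCGG or CCGCCC) was found in 30 of 47 (63.8%, against 35.4% of all), a CCAAT box (CCAAT or ATTGG) in 21 (44.7%, against 37.5%) and a TATA box (TATAAA or TTTATA) in 2 (4.26%, against 14.3%). Among the genes whose transcripts rose in at least 1 comparison described below, all 6 with a window had a GC box, as had 5 of 10 among those that fell. Of the genes called in neither comparison or not tested, 19 of 31 had one (61.3%). The difference between these small sets was not tested. These matches describe the letters of the windows only, and the table of all genes also holds non-coding genes.

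Under JQ1, 19 of the 56 tested genes changed against DMSO, 8 higher and 11 lower (edgeR quasi-likelihood test, Benjamini-Hochberg adjusted p below 0.05 over 11002 genes). That is 33.9% of them, where 28.9% of all tested genes were called, 13.6% higher and 15.4% lower. Under RG6146, 18 changed, 7 higher and 11 lower, or 32.1% against 26% of all genes (12.5% higher and 13.5% lower). The share of changed genes among these enzymes was thus near that of the whole transcriptome, and so was their median log2 fold change, -0.03 in either comparison against 0.00 and 0.01 for all genes. The groups of 3 libraries did not overlap for 29 of the 56 under JQ1 (51.8%, against 42.6% of all genes) and for 26 under RG6146 (46.4%, against 40.9%). At an unadjusted p below 0.05 stood 24 of 56 in either comparison (against 39.5% and 36.8% of all genes). All levels from here on are CPM normalised by the trimmed mean of M-values (TMM), in the order of replicates 1, 2 and 3. Summed over the 59 genes, the DMSO libraries lay at 3012 to 3109 CPM and the JQ1 libraries at 2966 to 3307 CPM. The RG6146 libraries lay at 3045 to 3205 CPM, and on this TMM scale the ranges overlapped.

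Changes of 1.5-fold or more were called for 9 genes under JQ1, 2 higher and 7 lower, and for 9 under RG6146, also 2 higher and 7 lower. Of all tested genes, 6.37% were called higher and 9.57% lower at that size under JQ1, and 5.99% and 8.55% under RG6146. They make up 10 genes: Sirt1 and Kdm4b rose, and Kmt2e, Kmt5b, Kdm3b, Kdm4c, Kat14, Kat2b, Kat5 and Tet3 fell. Both compounds were compared with the same 3 DMSO libraries, so their values below are given side by side and do not support each other.

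**Figure D1:**
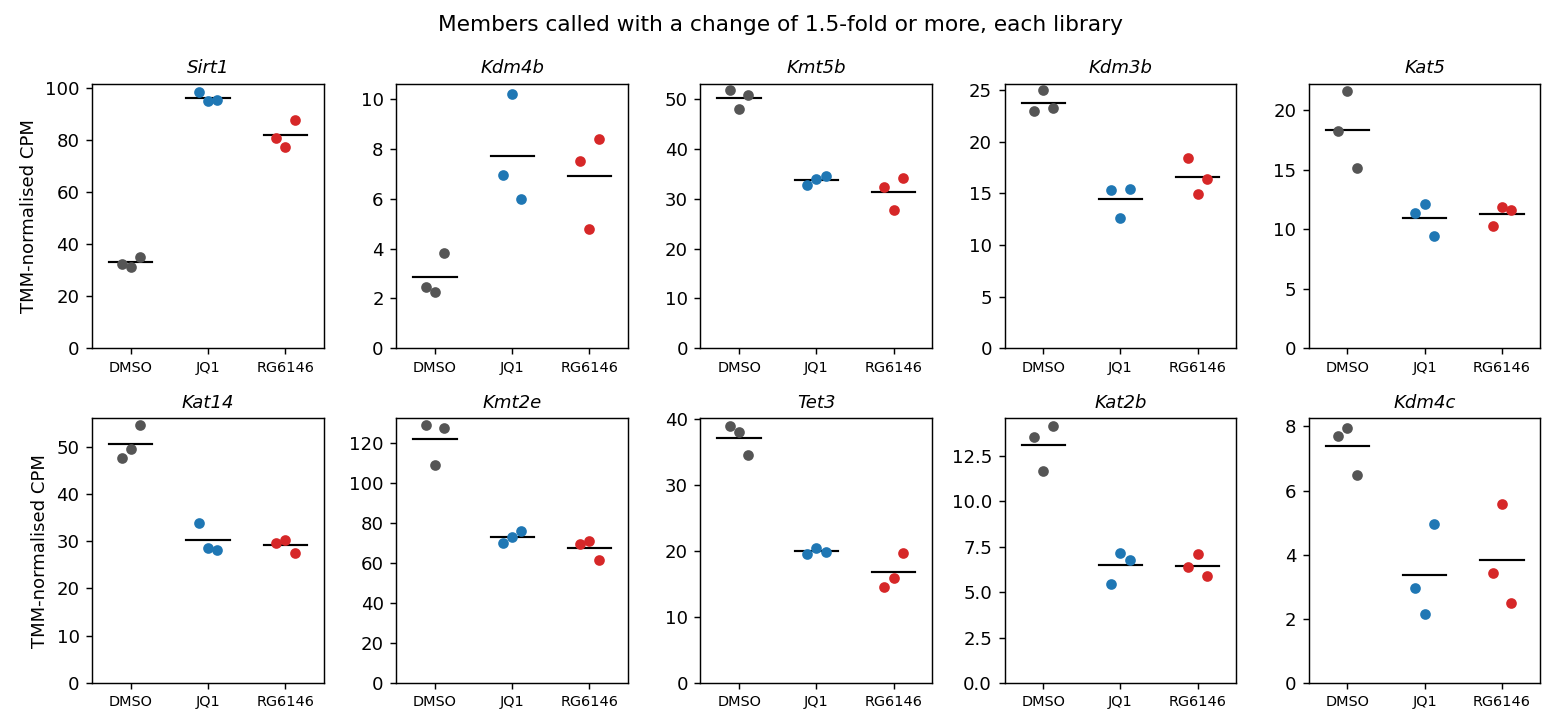
Level of the 10 genes called with a change of 1.5-fold or more, in TMM-normalised CPM (linear axes from 0), with each of the 3 libraries of DMSO, JQ1 and RG6146 as a point and the group mean as a line. Sirt1 stands at 31.3 to 35.2 CPM under DMSO and at 77.4 CPM or more in all 6 treated libraries, and in every panel the DMSO points lie apart from all treated points.

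Sirtuins and deacetylases remove the acetyl groups that BET proteins read. Sirt1, a nuclear NAD-dependent deacetylase that acts on histones and on p53, stood at 32.5, 31.3 and 35.2 CPM under DMSO, at 98.5, 95.2 and 95.4 CPM under JQ1 and at 81.0, 77.4 and 87.7 CPM under RG6146. All treated libraries lay far above all controls, and the libraries within a group were close together. The log2 fold change was 1.54 ± 0.09 (2.92-fold, adjusted p = 1.7e-09) under JQ1 and 1.31 ± 0.09 (2.48-fold, adjusted p = 1.5e-08) under RG6146. Sirt1 (ENSMUSG00000020063) lies on chromosome 10, 63319005 to 63381704 on mm10. Its antisense neighbour Gm16145, which shares 65 exonic bases with it, had no count in any library.

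Sirt7, a sirtuin of the nucleolus, went from 45.9, 50.9 and 56.6 CPM to 70.7, 74.5 and 73.7 CPM under JQ1 and to 66.1, 76.2 and 73.6 CPM under RG6146. The treated libraries again lay above all controls, with a smaller gap than for Sirt1. Its log2 fold changes were 0.51 ± 0.10 (adjusted p = 7.5e-04) and 0.49 ± 0.10 (adjusted p = 0.0012). Sirt7 shares 124 exonic bases on the same strand with Mafg, outside its last 1 kb, and Mafg moved the other way (-0.30 and -0.31). Sirt2, a mainly cytoplasmic sirtuin, was not called, at -0.23 (adjusted p = 0.360) and -0.46 (adjusted p = 0.0678). The mitochondrial sirtuin genes Sirt3 and Sirt4 had 1 to 11 counts per library and were not tested. Summed over the 5 genes, the sirtuin level was 94.98 to 109 CPM under DMSO, 184 to 185 CPM under JQ1 and 163 to 172 CPM under RG6146.

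Hdac1, a class I deacetylase of the SIN3, NuRD and CoREST corepressor complexes, rose from 109.6, 109.7 and 104 CPM to 152, 142 and 154 CPM under JQ1 (0.47 ± 0.09, adjusted p = 5.8e-04) and to 123, 146 and 153 CPM under RG6146 (0.39 ± 0.09, adjusted p = 0.0030). Every treated library exceeded every control. The other class I genes were not called: Hdac2, which works in the same complexes, had 0.15 and 0.19, Hdac3 0.19 and 0.26, and Hdac8 -0.16 and -0.13. Of class IIb, Hdac6 and Hdac10 were not called either. Hdac6, a cytoplasmic tubulin deacetylase, had the largest estimate among the genes not called under JQ1, 0.69 ± 0.29 (adjusted p = 0.0884), with 4.51, 5.69 and 3.36 CPM in the controls and 6.52, 7.14 and 8.10 CPM in the JQ1 libraries.

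Of 8 lysine acetyltransferase genes, 3 fell under either compound, and 1 rose under JQ1, or 50% and 37.5% called against 28.9% and 26% of all genes. Kat2b, which encodes PCAF, an acetyltransferase of the SAGA-type coactivators, fell from 13.5, 11.7 and 14.1 CPM to 5.47, 7.14 and 6.80 CPM under JQ1 and to 6.38, 7.09 and 5.91 CPM under RG6146. The groups did not overlap, and the log2 fold change was -1.03 ± 0.20 in either comparison (adjusted p = 7.6e-04 and 8.6e-04). Kat2b (ENSMUSG00000000708) lies on chromosome 17, 53566861 to 53672720. Its paralog Kat2a, which encodes GCN5, was not called (-0.13 and -0.20, adjusted p = 0.476 and 0.248), with controls at 26.9 to 33.3 CPM and treated libraries at 25.9 to 30.7 CPM.

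Kat5, which encodes TIP60 of the NuA4 complex, fell from 18.2, 21.6 and 15.1 CPM to 11.4, 12.1 and 9.41 CPM under JQ1 (-0.73 ± 0.17, adjusted p = 0.0042) and to 10.3, 11.9 and 11.6 CPM under RG6146 (-0.70 ± 0.17, adjusted p = 0.0063). Its lowest control lay above its highest treated library. The last 1 kb of Kat5 shares 426 exonic bases with Rnaseh2c on the opposite strand, whose log2 fold changes were 0.11 and -0.05, neither called. Kat14, which encodes an acetyltransferase subunit of the ATAC complex, fell from 47.6, 49.5 and 54.7 CPM to 33.9, 28.6 and 28.2 CPM under JQ1 (-0.74 ± 0.11, adjusted p = 7.2e-05) and to 29.6, 30.4 and 27.5 CPM under RG6146 (-0.79 ± 0.11, adjusted p = 4.2e-05). Controls and treated libraries were clearly apart. Kat14 shares 693 exonic bases on the same strand with Pet117, all outside the last 1 kb of Kat14. Pet117 fell by nearly the same amounts (-0.72 and -0.79). How reads of the pair were divided is not known, and the part of shared reads in either value was not tested.

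Kat6a, an acetyltransferase of the MOZ complex, rose under JQ1 from 80.3, 87.3 and 79.6 CPM to 97.4, 88.1 and 116 CPM (0.29 ± 0.10, adjusted p = 0.0383). Its lowest JQ1 library stood barely above the highest control, and the call was lost in 9 of 18 alternatives, among them DESeq2 (adjusted p = 0.0912), library size scaling (0.261), JQ1 replicate 1 (0.0627) or 3 (0.217) left out and DMSO replicate 1 (0.0973) or 3 (0.108) left out. Under RG6146 it was at 95.8, 95.1 and 106 CPM and was not called (0.26 ± 0.10, adjusted p = 0.0596). The remaining acetyltransferase genes were not called: Kat6b had 0.27 and 0.19, Kat7 0.04 and -0.08, and Kat8 0.03 and 0.31.

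Of the 8 genes of H3K4 methylation, 1 rose and 2 fell under JQ1, and 2 rose and 2 fell under RG6146. That is 37.5% and 50% called, against 28.9% and 26% of all genes. Kmt2e, a trithorax-related gene whose product carries a SET domain without known strong enzyme activity, fell from 129, 109 and 128 CPM to 70.1, 73.1 and 76.3 CPM under JQ1 and to 69.8, 71.4 and 61.6 CPM under RG6146. No treated library came near the lowest control. The log2 fold changes were -0.74 ± 0.09 (1.67-fold lower, adjusted p = 1.2e-05) and -0.86 ± 0.09 (1.81-fold lower, adjusted p = 2.7e-06). Kmt2e (ENSMUSG00000029004) lies on chromosome 5, 23434441 to 23504235, and shares 972 exonic bases at its 3′ end with Srpk2 on the opposite strand. Srpk2 was not called (-0.13 and -0.22).

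Kmt2c and Kmt2d encode the paired enzymes MLL3 and MLL4, which place single methyl groups on H3K4 at enhancers. Kmt2c rose from 88.6, 87.0 and 78.4 CPM to 104, 102 and 118 CPM under JQ1 (0.35 ± 0.09, adjusted p = 0.0053) and to 114, 108 and 108 CPM under RG6146 (0.38 ± 0.09, adjusted p = 0.0035). Kmt2d fell from 90.8, 85.3 and 90.4 CPM to 71.3, 71.2 and 70.3 CPM under JQ1 (-0.32 ± 0.09, adjusted p = 0.0097) and to 69.1, 71.6 and 81.6 CPM under RG6146 (-0.26 ± 0.09, adjusted p = 0.0345). For either gene the groups did not overlap, while the highest RG6146 library of Kmt2d came close to the controls. The Kmt2d call under RG6146 was lost in 9 of 18 alternatives, among them DESeq2 (adjusted p = 0.115), no count filter (0.0880), RG6146 replicate 1 (0.149) or 2 (0.114) left out, DMSO replicate 1 (0.0876) or 3 (0.0914) left out and both replicates 2 left out (0.0510). The change of Kmt2d relative to Kmt2c was not tested as a difference of its own. Kmt2c is at chromosome 5, 25271798 to 25498783, and Kmt2d at chromosome 15, 98831669 to 98871204.

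Kmt2a, the MLL1 gene, was at 139.9, 146 and 138 CPM under DMSO, 153, 159 and 161 CPM under JQ1 and 158, 165 and 168 CPM under RG6146. It was called under RG6146 (0.21 ± 0.07, adjusted p = 0.0372) and not under JQ1 (0.16 ± 0.07, adjusted p = 0.111), and the difference is tested below. The RG6146 call was lost in 14 of 18 alternatives, among them each RG6146 library left out in turn (adjusted p = 0.0517, 0.0935 and 0.0955), each DMSO library left out in turn (0.0840, 0.0581 and 0.105), both replicates 2 left out (0.0523), DESeq2 (0.0913) and the replicate block (0.0532). Kmt2b had -0.06 and 0.04, the SET1 enzyme gene Setd1a -0.13 and -0.13, and the monomethyltransferase gene Setd7 -0.32 (adjusted p = 0.0587) and -0.20. Setd1b, named for its spread after its values were seen, had 48.8, 59.3 and 101 CPM in the JQ1 libraries against controls of 60.2 to 68.1 CPM, and its 95% interval under JQ1 ran from -0.62 to 0.85.

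Kmt5b, which places the second and the third methyl group on H4K20, fell from 51.9, 48.0 and 50.8 CPM to 32.8, 34.0 and 34.5 CPM under JQ1 (-0.57 ± 0.10, adjusted p = 4.7e-04) and to 32.4, 27.8 and 34.1 CPM under RG6146 (-0.68 ± 0.10, adjusted p = 1.2e-04). Libraries within a group were close and the groups far apart. Its antisense neighbour Gm16066 was too low to test. Kmt5a, which places the first methyl group, had -0.14 and -0.04, and Kmt5c -0.19 and -0.38, none called. Setd5, a SET domain gene linked to HDAC3 complexes, fell from 81.6, 84.2 and 98.5 CPM to 66.5, 54.7 and 69.3 CPM (-0.47 ± 0.11, adjusted p = 0.0028) and to 66.8, 60.2 and 58.8 CPM (-0.51 ± 0.11, adjusted p = 0.0018). Setd3, Setd4 and Setd6 were not called, and the low counts of Setd4 left its JQ1 interval between -1.41 and 0.71.

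The H3K27 methyltransferase genes Ezh1 and Ezh2 and the H3K36 methyltransferase gene Setd2 were not called. Ezh2, the catalytic subunit of the Polycomb complex PRC2, was at 222 to 224 CPM under DMSO, 222 to 246 CPM under JQ1 and 242 to 245 CPM under RG6146, with log2 fold changes of 0.09 ± 0.07 and 0.13 ± 0.07 (adjusted p = 0.377 and 0.204). Its 95% intervals ended at 0.24 and 0.28, so a rise of 1.5-fold lay outside them. Ezh1 had -0.28 and -0.24 with intervals that reached -0.75 and -0.71. Setd2, which places the third methyl group on H3K36, had 0.13 ± 0.08 and 0.08 ± 0.08.

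Of 6 H3K9 demethylase genes, 2 rose and 2 fell under JQ1 and 1 rose and 2 fell under RG6146, or 66.7% and 50% called against 28.9% and 26% of all genes. Kdm4b, which removes methyl groups from H3K9, rose from 2.44, 2.27 and 3.84 CPM to 6.94, 10.2 and 6.01 CPM under JQ1 (1.43 ± 0.32, adjusted p = 0.0023) and to 7.52, 4.81 and 8.41 CPM under RG6146 (1.28 ± 0.32, adjusted p = 0.0065). These levels rest on 8 to 43 counts per library. The highest JQ1 library was replicate 2, and without both replicates 2 the JQ1 value was 1.07 (adjusted p = 0.0516), which ends the call. Kdm4c fell from 7.71, 7.96 and 6.47 CPM to 2.95, 2.14 and 4.97 CPM (-1.15 ± 0.33, adjusted p = 0.0149) and to 3.42, 5.57 and 2.50 CPM (-0.95 ± 0.33, adjusted p = 0.0383).

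The Kdm4c call under RG6146 was lost in 10 of 17 alternatives, among them each DMSO replicate left out (adjusted p = 0.0984, 0.100 and 0.0553 without replicates 1, 2 and 3), RG6146 replicate 1 (0.120) or replicate 3 (0.159) left out, both replicates 2 left out (0.0854), DESeq2 (0.145) and the replicate block (0.0503). Under JQ1 it was lost in 4 of 17: DESeq2 (0.0624), JQ1 replicate 1 (0.0636) or replicate 2 (0.0655) left out and both replicates 2 left out (0.133). Kdm4a was not called (-0.11 and -0.10), with controls at 43.8 to 48.9 CPM, JQ1 libraries at 40.7 to 43.7 CPM and RG6146 libraries at 34.9 to 56.3 CPM. Kdm4b is at chromosome 17, 56326062 to 56402870, and Kdm4c at chromosome 4, 74242497 to 74405860.

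Kdm3a and Kdm3b encode H3K9 demethylases of the same family. Kdm3b fell from 22.9, 25.0 and 23.3 CPM to 15.4, 12.6 and 15.4 CPM under JQ1 (-0.71 ± 0.15, adjusted p = 0.0014) and to 18.5, 14.9 and 16.4 CPM under RG6146 (-0.51 ± 0.14, adjusted p = 0.0137). All treated libraries lay below all controls. The latter call was lost in 3 of 18 alternatives: without RG6146 replicate 2 (-0.44, adjusted p = 0.0625), with DESeq2 (0.0971) and with ERCC spike-in scaling (0.297). Gm26538, on the opposite strand, shares 3468 exonic bases with Kdm3b, outside its last 1 kb, and had -0.13 and -0.31, neither called. Kdm3a rose under JQ1 from 29.0, 22.2 and 21.6 CPM to 38.5, 30.0 and 28.8 CPM (0.41 ± 0.14, adjusted p = 0.0370), with 1 control above the lowest JQ1 library, and that call was lost in 8 of 18 alternatives. Among these were DESeq2 (adjusted p = 0.134), library size scaling (0.159), JQ1 replicate 1 left out (0.219), DMSO replicate 2 (0.121) or 3 (0.132) left out and both replicates 2 left out (0.1097). Under RG6146 Kdm3a had 0.32 ± 0.14 (adjusted p = 0.115). Kdm7a was not called (-0.32 and -0.10).

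Of 6 H3K4 demethylase genes, 1 was called in either comparison, or 16.7% against 28.9% and 26% of all genes. Kdm5c fell under JQ1, from 35.4, 32.4 and 30.2 CPM to 25.5, 27.1 and 25.4 CPM (-0.33 ± 0.12, adjusted p = 0.0454), and had -0.32 ± 0.12 under RG6146 (adjusted p = 0.0597). Its Y-linked paralog Kdm5d fell under RG6146, from 18.6, 13.4 and 13.2 CPM to 10.03, 8.60 and 11.8 CPM (-0.58 ± 0.20, adjusted p = 0.0372), and had -0.49 ± 0.20 under JQ1 (adjusted p = 0.0673). In both genes every library of either compound lay below every control. Kdm5c lost its call in 12 of 18 alternatives, including all 3 JQ1 libraries left out in turn (adjusted p = 0.0617 to 0.124) and DMSO replicates 1 (0.158) and 2 (0.0898), RG6146 replicate 2 (0.0545), both replicates 2 (0.0991) and the replicate block (0.0570). Kdm5d lost its own in 6 of 18, including RG6146 replicates 1 (0.0995) and 2 (0.142) and DMSO replicate 1 (0.216). Kdm1a, the LSD1 gene, had -0.03 and 0.07, Kdm5a 0.13 and 0.16, and Kdm1b and Kdm5b had 0.34 to 0.43, none called.

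Kdm2b, an H3K36 demethylase gene whose product also recruits Polycomb complexes to CpG islands, rose from 69.4, 73.9 and 77.7 CPM to 88.8, 88.5 and 87.6 CPM under JQ1 (0.26 ± 0.08, adjusted p = 0.0224) and to 91.4, 92.1 and 88.1 CPM under RG6146 (0.30 ± 0.08, adjusted p = 0.0115). The groups did not overlap. The last 1 kb of Kdm2b shares 627 exonic bases with Rnf34 on the opposite strand, and Rnf34 rose by 0.96 and 1.07, and the part of its reads in the Kdm2b values was not tested. The JQ1 call was lost in 8 of 18 alternatives, among them DESeq2 (adjusted p = 0.0898), library size scaling (0.288), no count filter (0.0615), JQ1 replicate 1 left out (0.0583), DMSO replicate 1 left out (0.0858) and both replicates 2 left out (0.0743). The RG6146 call was lost in 3 of 18: DESeq2 (0.0529), library size scaling (0.114) and ERCC scaling (0.509). Kdm2a had 0.04 and -0.03. The H3K27 demethylase genes Kdm6a (0.04 and 0.11) and Kdm6b (-0.19 and -0.03) were not called. Kdm8 was too low to test, with 16, 5 and 10 counts under DMSO, 1, 1 and 5 under JQ1 and 4, 5 and 5 under RG6146. With no count filter, its log2 fold change was -2.01 ± 0.65 under JQ1 (adjusted p = 0.0169) and -1.07 ± 0.57 under RG6146 (adjusted p = 0.278).

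Tet3, which oxidises methylated cytosine, fell from 38.9, 38.1 and 34.5 CPM to 19.6, 20.5 and 19.9 CPM under JQ1 (-0.90 ± 0.13, 1.86-fold lower, adjusted p = 5.9e-05) and to 14.6, 15.9 and 19.8 CPM under RG6146 (-1.15 ± 0.13, 2.22-fold lower, adjusted p = 5.7e-06). Every treated library was far below the lowest control. Tet3 (ENSMUSG00000034832) lies on chromosome 6, 83362373 to 83459084. Its paralog Tet2 had 11.1, 14.2 and 11.03 CPM in the controls and 9.05 to 13.4 CPM in the treated libraries, with -0.37 ± 0.19 (adjusted p = 0.150) and -0.07 ± 0.18 (adjusted p = 0.845). The DNA methyltransferase genes were not called. Dnmt1, the maintenance enzyme, was at 188, 277 and 238 CPM under DMSO and its 95% interval ran from -0.11 to 0.78 under JQ1. Dnmt3a, a de novo enzyme, had -0.29 (adjusted p = 0.0849) and -0.26 (adjusted p = 0.140), and Dnmt3b 0.22 and 0.15.

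**Figure D2:**
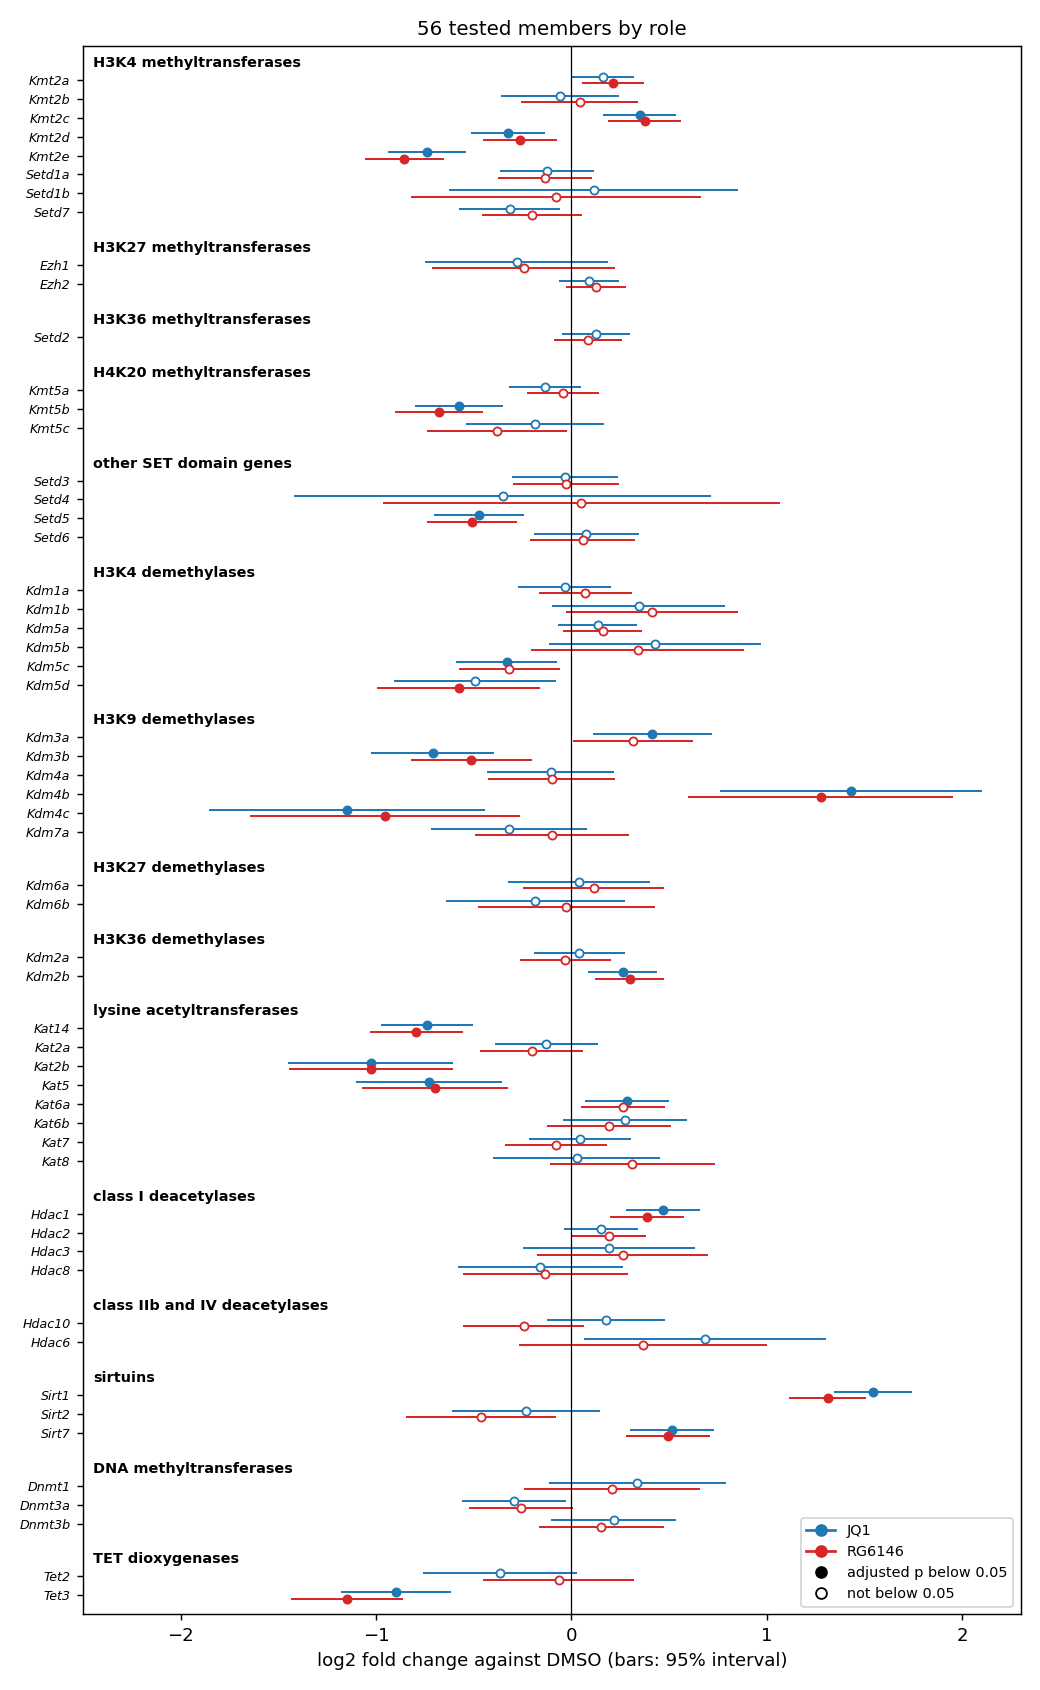
Log2 fold change against DMSO of the 56 tested genes by role, with JQ1 in blue and RG6146 in red. Points are estimates, bars 95% intervals, and filled points have an adjusted p below 0.05. Sirt1 (1.54 and 1.31) and Kdm4b (1.43 and 1.28) stand farthest to the right, and Kdm4c, Kat2b and Tet3 farthest to the left.

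Calls of 11 of 37 gene and comparison pairs held in every alternative run: Sirt1, Tet3, Kat2b, Kat14 and Kmt2e under either compound, and Kdm4b under RG6146. Scaling to the ERCC spike-ins, which made up 0.958 to 1.51% of counts, ended 24 of the 37 calls without changing a direction, and 7 with the replicate number as a block. DESeq2 ended 11 and library size scaling 6. Library size scaling without TMM moved the median of all genes to -0.13 under JQ1 and -0.10 under RG6146, and called 4 genes of these families higher and 15 lower under JQ1, and 5 and 15 under RG6146. Of the genes not called, 24 of 37 under JQ1 and 26 of 38 under RG6146 had a 95% interval within 1.5-fold in either direction, so for 13 and 12 of them a 1.5-fold change was not excluded at this depth.

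RG6146 at 2.5 µM was also compared directly with JQ1 at 1 µM, and since the doses differ this compares the treatments and not the compounds as such. None of the 56 genes was called (edgeR, 0 higher and 0 lower, against 0.00909% of all genes, and 0 with DESeq2). At an unadjusted p below 0.05 there were 2 in edgeR (against 3.88% of all genes) and 0 in DESeq2, and the groups did not overlap for 3 (against 9.93% of all genes). The 2 genes were Sirt1, 0.23 lower under RG6146 on the log2 scale (interval -0.42 to -0.05), and Hdac10, 0.42 lower (interval -0.72 to -0.12). Hdac10 was at 17.9, 17.9 and 18.7 CPM under DMSO, 21.7, 19.8 and 20.1 CPM under JQ1 and 16.2, 13.2 and 16.6 CPM under RG6146, so the JQ1 libraries lay above and the RG6146 libraries below all controls, with neither comparison called. The interval of the difference lay within 1.5-fold for 44 of the 56 genes. Among these 44, it ran from -0.10 to 0.21 for Kmt2a, from -0.23 to 0.19 for Kat6a and from -0.54 to 0.04 for Tet3. For the other 12 genes the data do not show that the treatments acted alike. Of these, Kdm4b had an interval from -0.74 to 0.43, and Setd4 and Setd1b had bounds of 1.46 and -0.93.

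**Figure D3:**
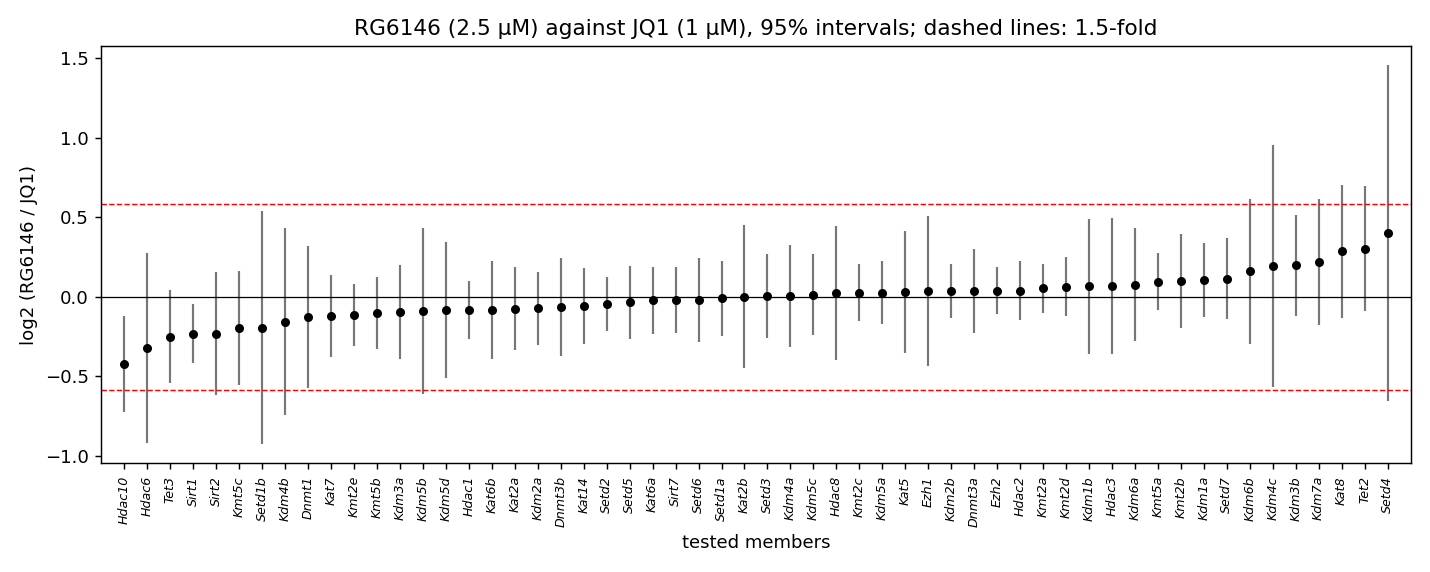
Log2 ratio of RG6146 (2.5 µM) to JQ1 (1 µM) for the 56 tested genes, ordered by size, with 95% intervals as bars and dashed lines at 1.5-fold. Intervals cross 0 for all genes except Hdac10 (-0.42) and Sirt1 (-0.23), and 44 intervals lie between the dashed lines.

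These enzymes work in complexes, so lists of partner subunits and of further enzymes were read from the same test. Of 112 tested genes on these lists, 22 rose and 24 fell under JQ1 (41.1%, against 28.9% of all genes), and 16 rose and 19 fell under RG6146 (31.3%, against 26%). Of all genes, 13.6% rose and 15.4% fell under JQ1, and 12.5% and 13.5% under RG6146, and the lists below, of 5 to 28 genes, are to be read against these shares. The median over the 112 genes was -0.03 and -0.02. With DESeq2 the counts were 13 and 13 under JQ1 and 10 and 10 under RG6146. Calls of single genes on these lists, and the counts of each list, were not repeated under the alternatives.

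Of 10 genes of the Polycomb complex PRC2, 6 rose and 1 fell under JQ1 (13.6% and 15.4% of all genes), with a median of 0.27. Under RG6146, 5 rose and 1 fell (12.5% and 13.5% of all genes), with a median of 0.16. Suz12, a core subunit, rose by 0.29 and 0.31, and the histone-binding subunit Rbbp4, which PRC2 shares with HDAC complexes, by 0.39 and 0.30, beside an Ezh2 that was not called. Its close relative Rbbp7 rose by 0.25 and 0.24, and Epop, an accessory subunit, by 0.41 and 0.47. Phf19, an accessory subunit that binds methylated H3K36, fell by 1.64 and by 1.01 on the log2 scale.

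Among 28 genes listed with acetyltransferase complexes, 6 rose and 6 fell under JQ1, and 5 rose and 6 fell under RG6146. Trrap, a scaffold of the SAGA and NuA4 complexes, rose by 0.65 and 0.67. Ing1, of a family shared between acetyltransferase and deacetylase complexes and not itself a marker of the former, rose by 0.96 and 0.87. Jade1, a partner of KAT7, had -1.04 and -1.10, and Msl1, a partner of KAT8, -0.54 and -0.55. Among 21 deacetylase corepressor subunits, 4 rose and 4 fell under JQ1 and 2 rose and 3 fell under RG6146. The related corepressor subunit genes Tbl1xr1 (-0.54 and -0.49) and Tbl1x (-0.39 and -0.30) fell in both, as did Mta3, of the NuRD complex (-1.41 and -1.35). Of 10 COMPASS subunits, 1 rose and 1 fell under JQ1 and 2 rose and 0 fell under RG6146 (5 and 4 genes at an unadjusted p below 0.05), and Wdr5, a core subunit, rose by 0.27 and 0.22.

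Of 15 histone methyltransferase genes with other names, 2 rose and 5 fell under JQ1, and 1 rose and 3 fell under RG6146. Prdm2, an H3K9 methyltransferase gene, rose by 1.11 and 1.03, while the H3K36 methyltransferase genes Nsd1 (-0.75 and -0.55) and Nsd2 (-0.48 and -0.42) fell. Of 7 acetyltransferase genes with other names, 3 fell under JQ1 and 2 under RG6146 and none rose. Crebbp, the CBP gene, fell in both (-0.48 and -0.29), and Ep300, its paralog, fell under RG6146 (-0.31, and -0.21 without a call under JQ1). Of 6 demethylase genes with other names, Phf2 fell in both (-1.08 and -0.95) and Jmjd1c under JQ1 (-0.56). Of 5 arginine methyltransferase genes, Carm1 fell in both (-0.73 and -0.57). Of 10 genes tied to DNA methylation, 3 rose and 1 fell under JQ1, and 1 rose and 2 fell under RG6146. Zbtb38, a reader of methylated DNA, had -1.80 and -1.89, and Gadd45b rose by 1.13 and 1.15.

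**Figure D4:**
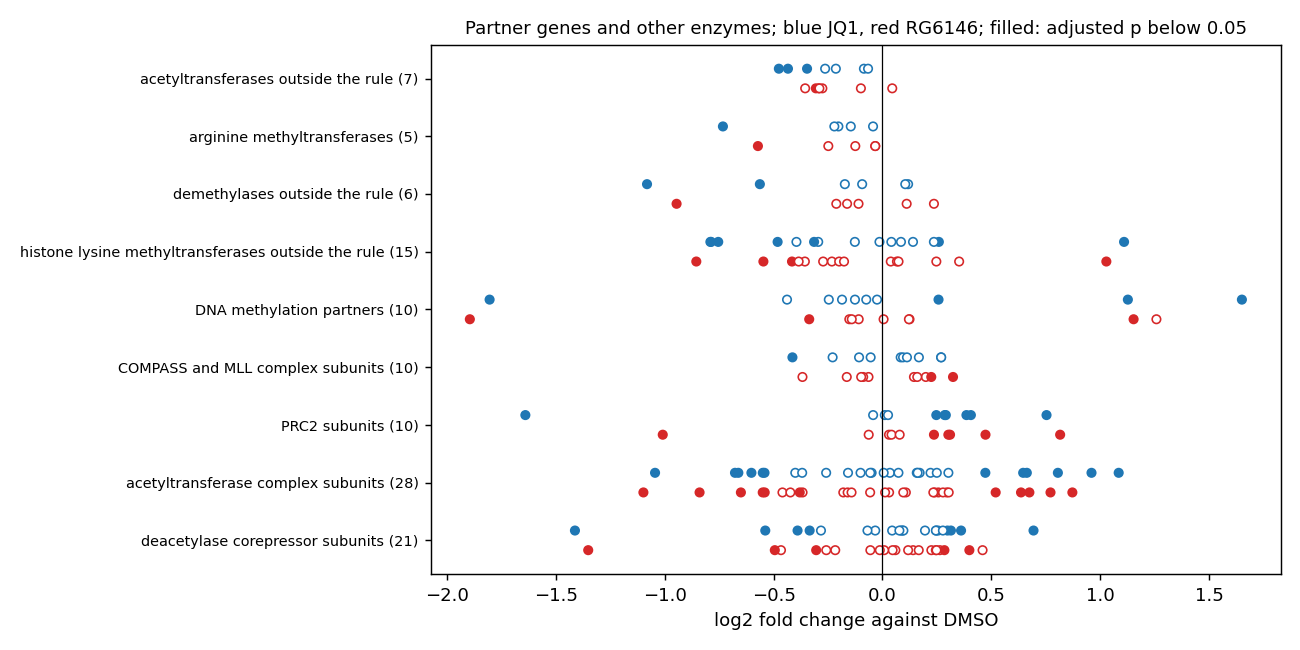
Log2 fold change against DMSO of the 112 tested partner and further enzyme genes by list (number of tested genes in brackets), with JQ1 in blue, RG6146 in red and filled points for an adjusted p below 0.05. Filled points lie on both sides of 0 for most lists, and among PRC2 subunits all filled points but Phf19 lie to the right.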

How the data were processed

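RNA of 9 samples was measured by 3′ mRNA sequencing. Per the labels' protocols, 500 ng of RNA went into each QuantSeq library, and a NextSeq 500 gave 75-base reads from 1 end. The deposited values are raw counts of reads per gene. The submitters' processing notes name the aligner HISAT2 2.1.0, the trimmer cutadapt 1.7, the counter featureCounts and build mm10. The annotation, the strand setting and the handling of reads with several matches are not stated in the sources at hand, so genes that overlap may share reads.

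Identifiers were matched to symbols with GENCODE M21 (42462 of 43629), and 92 ERCC spike-in rows entered neither library sizes nor tests. The test used edgeR 4.0.16 under R 4.3.3: filterByExpr (minimum count 10), TMM, and a quasi-likelihood F-test with robust moderation on all 9 libraries with group as the only term. Standard errors are the log2 fold change over the root of F. Intervals are 95%. Alternatives were DESeq2 1.42.0, other scalings, filters, a replicate block and libraries left out. Replicate pairs differed by more than sampling noise (chi-square per degree of freedom 6.60 to 16.4). p-values measure the spread between libraries of 1 clone, and the sample titles do not say whether replicates were separate cultures.

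The members and lists were chosen with earlier results of these data known. Named with each library's value were members called with 1.5-fold or more, with called members below that given more briefly, members not called by range, and up to 5 genes per partner list with the smallest p. Other members given by library (Hdac6, Hdac10, Setd1b, Tet2, Kdm8) were chosen after their values were seen.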

Additional observations from a re-analysis of the deposited data

How the results depend on the processing

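With ERCC scaling, 2 members were higher and 5 lower under JQ1, and 2 and 4 under RG6146. Among partner and further enzyme genes ERCC scaling gave 6 and 7, and 4 and 4. DESeq2 called 5 members higher and 9 lower under JQ1, and 5 and 7 under RG6146, and among partner genes 13 and 13, and 10 and 10. Library size scaling gave 4 members higher and 15 lower under JQ1, and 5 and 15 under RG6146. Of partner genes it called 11 higher under JQ1, and 10 higher and 30 lower under RG6146. A mean of at least 10 CPM left 49 members and gave 5 higher and 12 lower under JQ1, and 5 and 11 under RG6146. The cause of these shifts was not tested, except that this filter tests fewer genes. Leaving out 1 library in turn gave 5 to 8 members higher and 9 to 12 lower under JQ1, 6 to 8 and 8 to 11 under RG6146, and 0 for RG6146 against JQ1. For partner genes the ranges were 17 to 25 and 16 to 24 under JQ1, and 12 to 17 and 12 to 20 under RG6146. The lowest values, 5 members higher under JQ1 and 12 partner genes lower under RG6146, came without JQ1 replicate 1 and without RG6146 replicate 1. Without DMSO replicate 2 and JQ1 replicate 2, chosen after seeing the data, 7 members were higher and 9 lower under JQ1, and 9 and 9 under RG6146.

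The labels do not say that a replicate number marks a shared batch, and the numbers were not taken to pair the libraries, since deviations of libraries with the same number correlated at only -0.063 to 0.10. As hints of a shared factor from the data, 6 of 9 libraries correlated best with their own number, and in every group replicate 1 had the highest ERCC share and replicate 2 the highest myeloid marker sum. With the replicate block, 8 members were higher and 11 lower under JQ1, and 6 and 10 under RG6146. The 37 calls of single members were each repeated under the alternatives, 660 repeats in all, of which 102 lost the call and 0 reversed, and 9 repeats of members not called gained one.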
